A study of Mus musculus with 4 samples.

Results

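The 10 transcription factors Pparg, Cebpa, Cebpb, Cebpd, Ebf1, Ebf2, Ebf3, Klf15, Zfp423 and Srebf1, which drive or modulate the formation of fat cells, were compared between the mouse stromal cell lines OP9M2 and BFC012. They were chosen by name as known regulators of adipogenesis. Earlier results of these data were known when they and the gene lists below were chosen. They were represented by 20 probe sets that named a single member each, out of 45037 tested probe sets and 18193 genes. OP9M2 is a mesenchymal stem cell clone, subcloned from OP9 stroma, used to expand human hematopoietic stem and progenitor cells, and BFC012 is a non-supportive fibroblast line from mouse fetal liver. Each line was measured on 2 arrays labelled as biological replicates. All cells had received 2000 rad and been plated at 25000 cells per cm2, with harvest 48 hours later. OP9M2 was grown in 20% fetal bovine serum and BFC012 in 10%, so the effects of serum and of the line itself cannot be told apart. OP9M2 is a single clone, and no source says how the BFC012 cells were cloned or whether the replicate plates came from separate thaws, so p-values measure the spread between these arrays only.

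Fat cells arise from mesenchymal precursors through a cascade of transcription factors. The early factors C/EBPβ and C/EBPδ are induced first and switch on PPARγ and C/EBPα, which maintain each other and together turn on the genes of lipid uptake, storage and adipokine secretion. Early B cell factors (EBF), the zinc finger protein Zfp423 and the Krüppel-like factor Klf15 favour PPARγ expression or cooperate with it, and SREBP-1, the product of Srebf1, drives fatty acid synthesis. In bone marrow, the same factors mark stromal cells that are inclined towards fat.

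Values are given as the natural logarithm of the deposited RMA intensity, which was read as the RMA log2 value because its range was that of RMA log2 values, and differences are OP9M2 minus BFC012 in log2 units ± SE. A gene was called at an adjusted p under 0.05 (limma, Benjamini-Hochberg over all tested probe sets) with a difference of at least 1 log2 unit. Where a gene had several probe sets, the brightest on average represented it. The background level, 6.10 log2 units, was set from 79 probe sets for receptors of smell, pheromones and trace amines, as the 95th percentile of their values. Where both arrays of the dimmer line were at or below it, the fold is a lower bound computed against it. Values of different probe sets are not on a common scale. Brightness was used only to choose probe sets and the genes to name, and in 1 descriptive sum over 4 fat cell markers.

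The BFC012 arrays were closer to each other (r = 0.994 across probe sets) than the OP9M2 arrays (r = 0.980), and 291 probe sets in BFC012 and 2842 in OP9M2 had a gap of 1 log2 unit or more between replicates. OP9M2 replicate 2 also differed in its control probe sets. A spiked poly-A control of the dap transcript read 2.57 there and 9.11 to 11.0 on the other arrays, and a probe set of 18S ribosomal RNA read 14.1 there and 12.7 to 13.2 on the others. Of 10 fibroblast and stromal markers, 6 were above background on all 4 arrays, Thy1 and Lum were on none, and Col1a2 was above it on both OP9M2 arrays and on 1 BFC012 array. Col1a2, at 14.25 and 14.14 against 6.18 and 6.07, was called higher in OP9M2 (8.07 ± 0.14, adjusted p = 0.00105, limma). The last of the 10 markers, the matrix proteoglycan Dcn, was above background in BFC012 only (11.73 and 12.60, against 5.62 and 6.04). It was called lower in OP9M2 (at least 67.2-fold, adjusted p = 0.00355, limma). The 6 mesothelial markers were above background on both BFC012 arrays, and 4 of them were called lower in OP9M2. Of the 6 blood and macrophage markers, Ptprc, Adgre1 and Tyrobp were not above background on any array, while Csf1r was on 4 arrays (6.89 to 7.07), Cd68 on 3 and Lyz2 on 1, and none of the 6 was called.

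The RefSeq promoter table (GRCm38.p6) held 14 transcript starts for 8 of the 10 members, while Cebpd and Ebf2 had no entry. The 250 bases before a start are printed for a pair of members that are known to activate each other, for an EBF gene and for an early C/EBP gene. Capitals mark matches on either strand to 8 patterns. For the factors of the cascade these were TTGCNNAA for C/EBP proteins, CCCNNGGG for EBF proteins, TCACNCCAC for SREBP proteins and the direct repeat that is bound by PPARγ with RXR. For general promoter elements they were TATAAA for the TATA box, then GGGCGG for the GC box bound by Sp1, then CCAAT for the box of that name. The last was AGATAA, which GATA proteins bind. Adjoining or overlapping matches form 1 run. The sequences were taken on the plus strand from chr6:115421816-115422065 before the most downstream of 3 starts of Pparg, from chr7:35119043-35119292 for Cebpa, from chr2:167688665-167688914 for Cebpb and from chr11:44617850-44618099 before the first of 2 starts of Ebf1.
Pparg: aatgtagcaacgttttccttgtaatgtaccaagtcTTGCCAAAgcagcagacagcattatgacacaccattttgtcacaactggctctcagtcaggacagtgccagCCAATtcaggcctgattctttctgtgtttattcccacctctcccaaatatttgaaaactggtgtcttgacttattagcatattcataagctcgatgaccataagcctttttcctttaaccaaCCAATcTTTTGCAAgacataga
Cebpa: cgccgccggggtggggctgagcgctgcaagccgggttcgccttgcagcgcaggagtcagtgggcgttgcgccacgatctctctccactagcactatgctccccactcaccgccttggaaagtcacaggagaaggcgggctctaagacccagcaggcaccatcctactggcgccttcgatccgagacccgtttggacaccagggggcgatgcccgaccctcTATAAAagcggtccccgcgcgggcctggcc
Cebpb: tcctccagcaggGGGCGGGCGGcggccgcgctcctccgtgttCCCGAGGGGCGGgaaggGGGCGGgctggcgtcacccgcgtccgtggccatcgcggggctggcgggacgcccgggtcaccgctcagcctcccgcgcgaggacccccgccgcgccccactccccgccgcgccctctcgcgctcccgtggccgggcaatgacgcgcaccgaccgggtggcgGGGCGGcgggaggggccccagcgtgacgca
Ebf1: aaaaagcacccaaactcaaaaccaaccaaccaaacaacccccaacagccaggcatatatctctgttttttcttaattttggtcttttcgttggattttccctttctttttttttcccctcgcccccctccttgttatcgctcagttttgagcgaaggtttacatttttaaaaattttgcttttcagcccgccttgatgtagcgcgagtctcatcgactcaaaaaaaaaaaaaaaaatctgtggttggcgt

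The Pparg stretch held 2 C/EBP matches, TTGCCAAA from -215 to -208 and TTTTGCAA from -16 to -9, counted from the transcript start. Among the 14 member stretches the other match to this pattern lay before the first start of Zfp423, and 9.57% of 32817 promoters of the same length held it. The Cebpa stretch held a TATA box from -30 to -25 (12.4% of all promoters held this pattern). The Cebpb stretch held 5 GC boxes (32.7% of all promoters held at least 1) and an EBF match (11.8%), and the Ebf1 stretch held no match to any of the 8 patterns. The direct repeat of PPARγ with RXR (0.0335% of all promoters), the SREBP pattern (1.05%) and the GATA pattern (9.99%) had no match in any member stretch. The stretches also differed in composition, with 81.6% G and C before Cebpb, 66.4% before Cebpa, 40.8% before this start of Pparg and 40.0% before Ebf1, against a median of 52.4% over all promoters. These matches are descriptions of the letters and were not measured as binding sites.

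Members of the cascade went in both directions. Pparg, Ebf1 and Ebf3 were higher in OP9M2, Cebpd and Ebf2 were lower, and Cebpa, Cebpb, Klf15, Zfp423 and Srebf1 were not called. Thus 3 of 10 members were higher, against 2.36% of all 18193 genes, and 2 of 10 were lower, against 3.56% of all genes. By probe set, 11 of 20 were called, against 4.46% of all tested probe sets. In all 10 members the arrays of the lines did not overlap, which was also the case in 53.2% of all genes. Both OP9M2 arrays were above both BFC012 arrays in 7 members (28.4% of all genes) and below them in 3 (24.8%). The median difference was 1.70 log2 units over the members and 0.032 over all genes. Leaving out OP9M2 replicate 2 keeps the 3 arrays with a high value of the dap poly-A control. The 5 called members then differed by 4.74 (Pparg), 5.89 (Ebf1), 4.05 (Ebf3), -2.83 (Cebpd) and -4.75 (Ebf2). Without OP9M2 replicate 1 the differences were 4.18, 4.05, 3.22, -3.215 and -4.17 in the same order. Calls over all genes also became more frequent in these fits, with 6.47% higher and 6.26% lower without OP9M2 replicate 2 and 3.78% higher and 5.41% lower without OP9M2 replicate 1. When BFC012 replicate 1 or BFC012 replicate 2 was left out, the spread rested on the OP9M2 pair, and limma called 0 members and 0 of all tested probe sets (4568 and 4517 had an unadjusted p under 0.05).

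**Figure D1:**
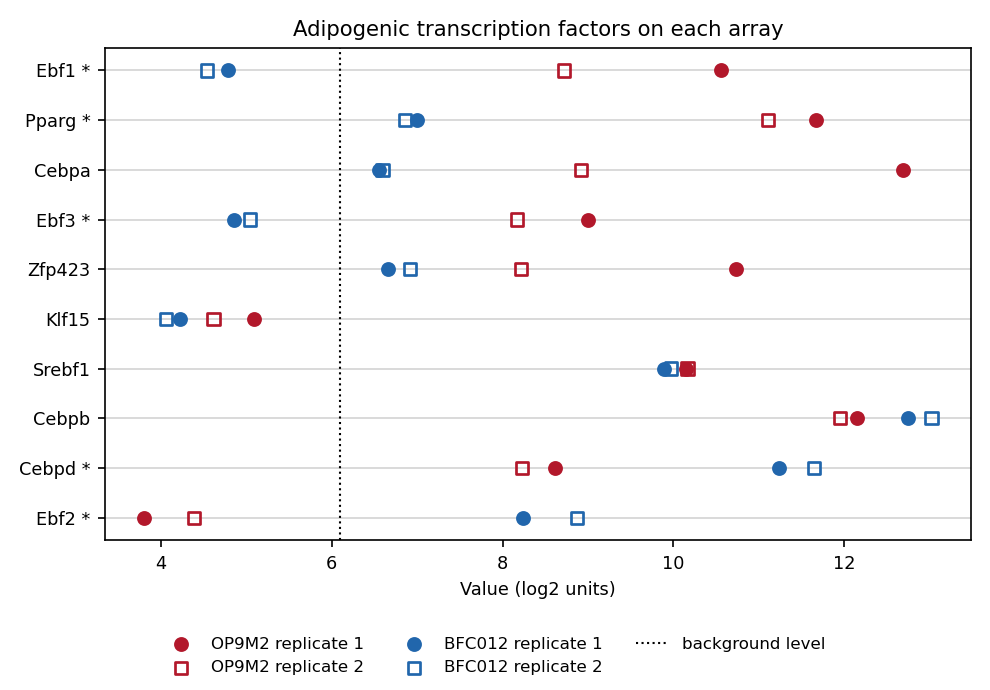
The 10 factors (rows, from the most positive to the most negative difference) with their log2 values on the horizontal axis. Red marks OP9M2, blue marks BFC012, a filled circle is the first replicate of a line and an open square the second; the 5 called factors carry an asterisk, and the background level is dotted. The OP9M2 values of Pparg (11.67 and 11.11) lie far to the right of its BFC012 values (7.00 and 6.86), and those of Ebf2 (3.81 and 4.39) far to the left (8.24 and 8.87).

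The central pair of the cascade was Pparg and Cebpa. Pparg, the nuclear receptor that is required for fat cell formation (chr6:115360879-115490404), had values of 11.67 and 11.11 in OP9M2 and of 7.00 and 6.86 in BFC012. All 4 values were above background, but those of BFC012 were close to it, so the fold rests on values near background. The lowest OP9M2 value was 4.11 log2 units above the highest BFC012 value. The difference was 4.46 ± 0.23 (22.1-fold, adjusted p = 0.00321, limma), larger than the gap of 0.56 within the OP9M2 pair. It was 4.18 without OP9M2 replicate 1 and 4.74 without OP9M2 replicate 2, called in both cases. Pparg had a single probe set, whose name ends in a_at, the suffix of probe sets that can match several transcripts of a gene, so the transcripts from its different starts were not distinguished.

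Cebpa, the partner that sustains Pparg in fat cells (chr7:35119293-35121928), had values of 12.69 and 8.92 in OP9M2 and of 6.55 and 6.59 in BFC012. Both OP9M2 arrays were higher than both BFC012 arrays, but they lay 3.77 log2 units apart, against 0.043 within BFC012. The difference of 4.23 ± 1.26 was not called (adjusted p = 0.176, limma), and its 95% interval ran from 0.87 to 7.59. In only 13 of 18193 genes, Cebpa included, were the OP9M2 arrays so far apart in either direction. Leaving out OP9M2 replicate 1 gave a difference of 2.35 (adjusted p = 0.00501) and leaving out OP9M2 replicate 2 gave 6.12 (adjusted p = 0.000996), both called, since the spread then comes from the BFC012 pair and the lone OP9M2 array is assumed to vary in the same way.

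The early factors were both brighter in BFC012. Cebpd (chr16:15887286-15889545) had values of 8.61 and 8.23 in OP9M2 and of 11.24 and 11.65 in BFC012. The lines were 2.63 log2 units apart at the nearest, and the arrays of a line were 0.38 and 0.41 apart. Its difference was -3.02 ± 0.23 (8.13-fold lower in OP9M2, adjusted p = 0.00737, limma). Its other probe set had values of 6.13 and 6.38 in OP9M2 and of 7.36 and 7.17 in BFC012, and was not called (-1.01 ± 0.17, adjusted p = 0.0502).

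Cebpb (chr2:167688915-167690432), which acts beside Cebpd at the start of the cascade, had values of 12.15 and 11.95 in OP9M2 and of 12.75 and 13.02 in BFC012. The difference of -0.84 ± 0.17 was under 1 log2 unit and was not called (adjusted p = 0.0813, 95% interval -1.29 to -0.38). Its other probe set gave 10.52 and 9.98 against 11.36 and 11.59, a difference of -1.23 ± 0.23 that was not called either (adjusted p = 0.0699). Both probe sets thus pointed the same way as those of Cebpd, and no difference between the C/EBP genes was tested.

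The 3 EBF genes encode closely related DNA-binding proteins, and they did not move together. Ebf1 (chr11:44618100-45008096), which is needed for B cell and fat cell formation, had values of 10.55 and 8.72 in OP9M2 and of 4.79 and 4.54 in BFC012. The BFC012 arrays were below background, and the lowest OP9M2 array was 3.93 log2 units above them. Its difference was 4.97 ± 0.63 (at least 11.6-fold, adjusted p = 0.0277, limma). Of its other probe sets, 3 were called higher as well, with differences of 6.65 ± 0.61, 6.47 ± 0.58 and 5.51 ± 0.71 and adjusted p between 0.0116 and 0.0289. In each of the 4 called probe sets OP9M2 replicate 1 was above replicate 2, by 1.69 to 2.06 log2 units. The remaining probe set was not above background on any array (5.54 and 4.87 against 4.52 and 4.52) and was not called.

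Ebf3 (chr7:137193671-137322805) had values of 9.00 and 8.17 in OP9M2 and of 4.86 and 5.04 in BFC012. As for Ebf1, only the OP9M2 arrays were above background. The difference was 3.64 ± 0.31 (at least 5.63-fold, adjusted p = 0.0102, limma), and the other probe sets were called with 3.71 ± 0.18 and 3.32 ± 0.24. For the former, the ending s_at is the array maker's sign that its probes may match more than 1 gene.

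Ebf2 (chr14:67233292-67430952), a factor of brown fat precursors, had the opposite pattern, with values of 3.81 and 4.39 in OP9M2 and of 8.24 and 8.87 in BFC012. Only the BFC012 arrays were above background. The difference was -4.46 ± 0.31 (at least 5.50-fold lower in OP9M2, adjusted p = 0.00626, limma). A further probe set, at 3.86 and 2.86 against 6.52 and 7.56, was called lower as well (-3.68 ± 0.50, adjusted p = 0.0319). The last, at 4.29 and 4.10 against 5.42 and 6.23, was above background on 1 array only and was not called (-1.63 ± 0.30, adjusted p = 0.0668). OP9M2 thus had Ebf1 and Ebf3 above background and BFC012 had Ebf2.

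**Figure D2:**
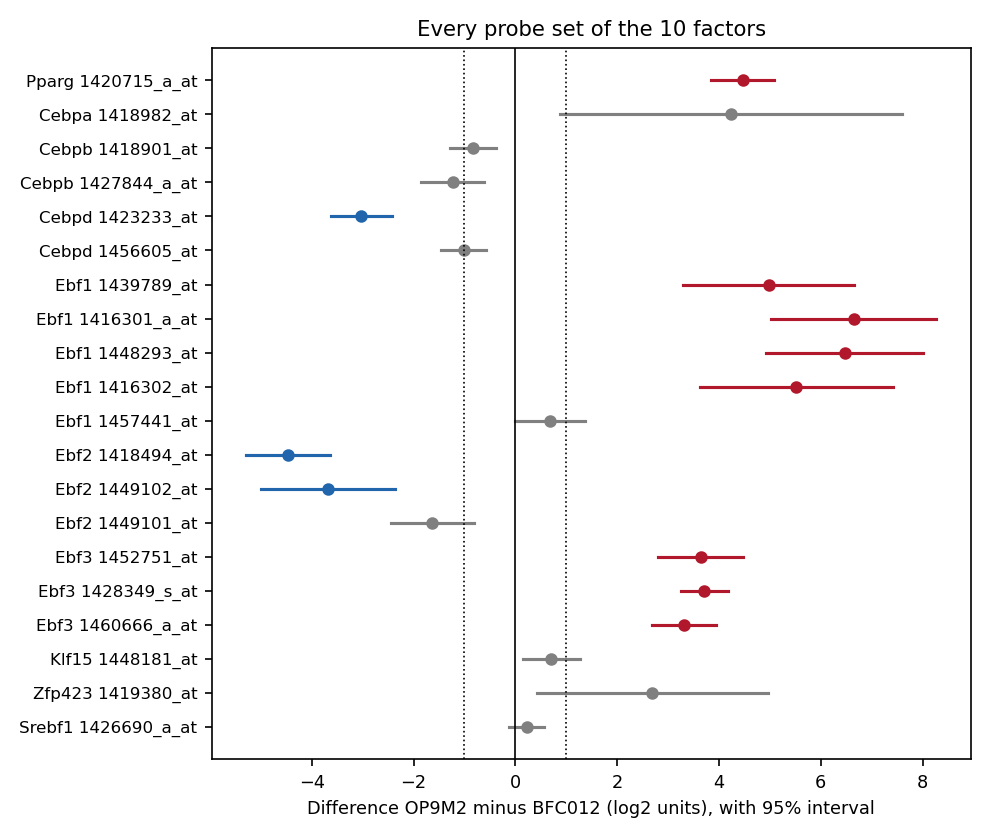
Difference between the lines (horizontal axis, log2 units) for each of the 20 probe sets of the 10 factors, as points with 95% intervals from limma; red probe sets were called higher in OP9M2, blue ones lower and grey ones were not called, and the dotted lines mark 1 log2 unit. The probe sets of each gene lie on the same side of 0, and the intervals of Cebpa (0.87 to 7.59) and Zfp423 (0.42 to 4.95) are the widest.

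Of the remaining members, Zfp423 (chr8:87661810-87962053), a zinc finger protein that marks committed fat cell precursors, had values of 10.73 and 8.21 in OP9M2 and of 6.66 and 6.91 in BFC012. All were above background, those of BFC012 only a little, and the lines did not overlap. The OP9M2 arrays, however, were 2.52 log2 units apart. This rise of replicate 1 over replicate 2 was equalled or exceeded in 46 of 18193 genes, Zfp423 included. The difference was 2.69 ± 0.85 and was not called (adjusted p = 0.196, 95% interval 0.42 to 4.95). It was called without OP9M2 replicate 1 (1.43, adjusted p = 0.0246) and without OP9M2 replicate 2 (3.95, adjusted p = 0.00181).

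Srebf1 (chr11:60199084-60224186) was nearly level, with values of 10.14 and 10.17 in OP9M2 and of 9.89 and 9.97 in BFC012. The difference of 0.22 ± 0.13 was not called (adjusted p = 0.461), and its 95% interval from -0.13 to 0.57 did not reach 1 log2 unit in either direction. Klf15 (chr6:90461043-90491803), which is induced late and by glucocorticoids, was not above background on any array, with values of 5.09 and 4.62 in OP9M2 and of 4.22 and 4.07 in BFC012, and was not called (0.71 ± 0.21, adjusted p = 0.173).

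**Figure D3:**
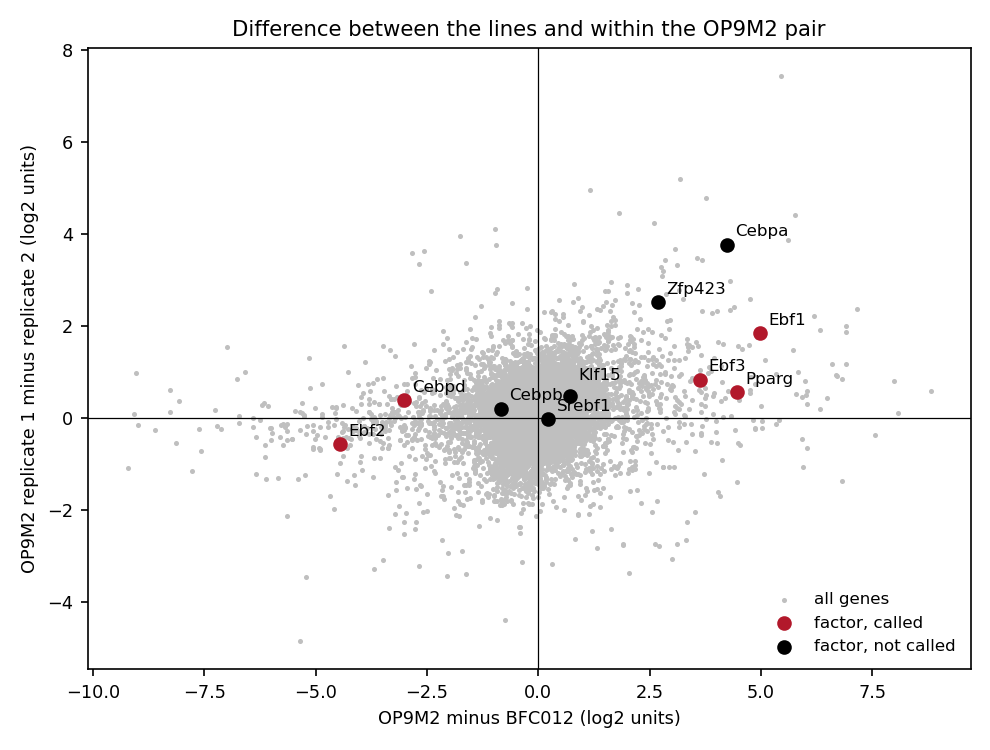
Difference between the lines (horizontal axis, log2 units) against the gap between the OP9M2 arrays (vertical axis, replicate 1 minus replicate 2, log2 units) for 18193 genes in grey, with the 5 called factors in red and the other 5 in black. Cebpa lies at 4.23 and 3.77, near the upper edge of all genes, while Pparg, with a similar difference of 4.46, has a gap of 0.56.

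The factors thus differed in how far apart the OP9M2 arrays were. Cebpa, Zfp423 and Ebf1 were at least 1 log2 unit higher on OP9M2 replicate 1 than on replicate 2 (3 of 10 members, against 4.47% of all genes), and none was as far apart in the opposite direction. The share was similar among the fibroblast and stromal markers (30.0%), the mesothelial markers (33.3%) and the regulators that promote fat formation (28.6%). It was 0 among the blood and macrophage, endothelial and hepatocyte markers and among the regulators that hold fat formation back. Within BFC012 the largest gap of a member was 0.62, in Ebf2, by the probe sets that represent the genes. The other Ebf2 probe sets had BFC012 gaps of 1.035 and 0.805. Among the 4 measured markers of mature fat cells, Adipoq and Cidec were also higher on OP9M2 replicate 1, by 7.43 and 1.55 log2 units. Adipoq, which encodes the adipokine adiponectin, had values of 12.84 and 5.41 in OP9M2 and of 3.99 and 3.39 in BFC012. The lipid droplet protein Cidec had values of 6.69 and 5.14 in OP9M2 and of 3.75 and 3.79 in BFC012, and only the first was above background. The other markers did not follow them, since Retn, at 6.90 and 6.48 against 6.83 and 6.66, overlapped between the lines and Lep was not above background on any array. The linear values of the 4 markers summed to 7583 on OP9M2 replicate 1 and to 184 on replicate 2, against 142 to 163 in BFC012, and this difference came almost wholly from Adipoq. Because probe sets are not on a common scale, the sum is only a description and follows its brightest probe set. In RNA of whole cultures a change in the share of fat cells and a change in RNA per cell cannot be told apart, and the part of fat cell content in the gaps of the factors was not tested. The dap poly-A control and the 18S value of OP9M2 replicate 2 given above moved with the same gaps, and their part was not tested.

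Genes that PPARγ and C/EBPα are known to switch on were higher in OP9M2 or not called. Of 34 listed targets 30 were measured, of which limma called 5 higher and 0 lower and left 25 uncalled (16.7% called, against 5.91% of all genes), and 5 of the 25 were not above background on any array. No target was called lower by limma under any of the alternatives either. The median difference was 0.82. The fatty acid binding protein Fabp4 had values of 13.69 and 13.09 in OP9M2 and of 4.61 and 4.55 in BFC012 (8.81 ± 0.24, at least 157-fold, adjusted p = 0.00111, limma). The lipase Lpl (6.91 ± 0.66), the lipid droplet proteins Plin4 (6.91 ± 0.81) and Plin2 (1.09 ± 0.17) and the lipase inhibitor Angptl4 (3.20 ± 0.17) were the other called targets. By the mean of a gene's probe sets the difference was smaller for Fabp4 (5.28), Lpl (6.54) and Angptl4 (2.435), and all were still called. Leaving out OP9M2 replicate 1 ended the call of Plin2 (0.96, adjusted p = 0.0526).

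The targets that were not called included some of the best known fat cell genes. The fatty acid transporter Cd36 had values of 11.56 and 7.13 in OP9M2 and of 3.41 and 3.74 in BFC012, and was not called (5.77 ± 1.48, adjusted p = 0.131). Adipoq, with the values given above, was not called (5.44 ± 2.49, adjusted p = 0.343). Of the targets that were not called, the brightest were the adiponectin receptor Adipor2 (12.77 and 11.04 against 10.11 and 10.13), Gpam, which starts triglyceride synthesis (10.51 and 10.13 against 10.43 and 10.83), and the carbonyl reductase Cbr2 (11.40 and 10.11 against 9.98 and 10.29). On OP9M2 replicate 1, 13 of the 30 targets (43.3%) were at least 1 log2 unit above replicate 2 and 0 were as far below, against 4.47% and 2.93% of all genes. Without OP9M2 replicate 2, 18 targets were called (against 12.7% of all genes in that fit), and without OP9M2 replicate 1, 7 were (against 9.19%).

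**Figure D4:**
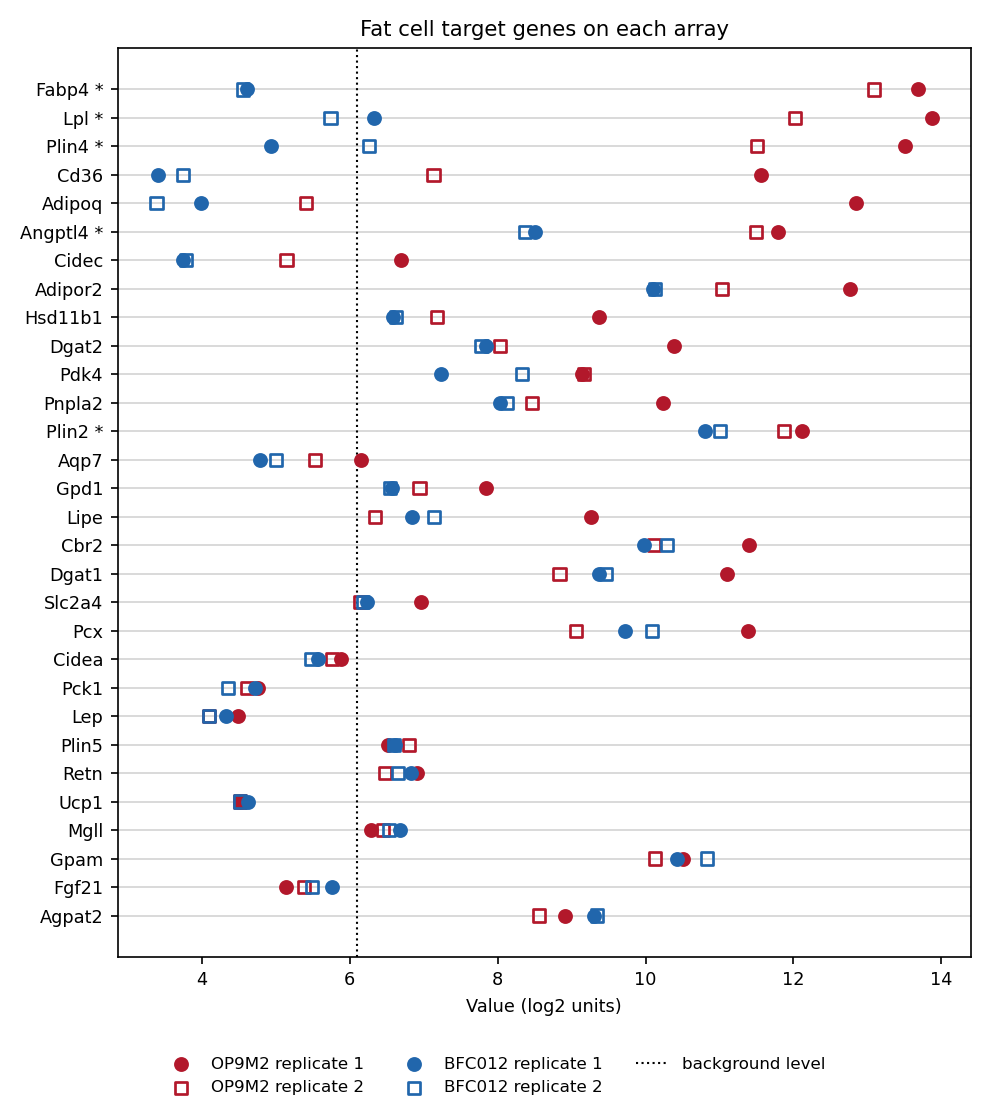
The 30 measured fat cell targets (rows) with their log2 values on the horizontal axis, drawn with the same colours and symbols as the factors. The OP9M2 values of Fabp4 (13.69 and 13.09) are far from its BFC012 values (4.61 and 4.55), while Adipoq lies at 12.84 on OP9M2 replicate 1 and at 5.41 on replicate 2.

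Other regulators of adipogenesis were mostly not called. Of 47 listed, 44 were measured, of which 1 was called higher and 3 lower, while 40 were not called (9.09% called, against 5.91% of all genes; median difference -0.12). Among the 14 genes that hold fat formation back, Foxc2, a forkhead factor of mesoderm, was higher in OP9M2, with values of 9.60 and 9.64 against 4.27 and 4.17 (5.40 ± 0.13, at least 11.5-fold, adjusted p = 0.00105, limma). The Notch target Hes1, at 6.53 and 6.41 against 9.53 and 9.84, was lower (-3.21 ± 0.17, adjusted p = 0.00331), and so was Gata2, a zinc finger factor of precursor cells, at 7.90 and 7.79 against 9.08 and 8.88 (-1.14 ± 0.15, adjusted p = 0.0296). Gata2 was not called with limma-trend (adjusted p = 0.0538).

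Among the 13 measured partners and coregulators, Ppargc1a, the coactivator of mitochondrial and thermogenic genes, was lower in OP9M2, at 4.62 and 5.23 against 6.74 and 7.20 (-2.04 ± 0.29, at least 1.83-fold, adjusted p = 0.0354). Rxra, the partner with which PPARγ binds DNA, had values of 9.95 and 8.65 in OP9M2 and of 9.12 and 9.11 in BFC012 and was not called (0.18 ± 0.45, adjusted p = 0.894). None of the 14 genes that promote fat formation was called. In this group OP9M2 replicate 1 and replicate 2 were far apart for Egr2 (9.51 and 5.39, against 8.58 and 8.26 in BFC012) and, in the opposite direction, for Klf5 (7.28 and 10.16, against 10.56 and 10.29). Klf4, Nfib and Klf3 were the brightest regulators that were not called, with differences of 0.48, -0.63 and -0.42. The relatives Cebpg (0.65 ± 0.18), Ebf4 (-1.07 ± 0.24) and Srebf2 (-0.16 ± 0.19) were not called, and Ebf4 was not above background on any array. Calls among the regulators numbered 13 without OP9M2 replicate 2 and 7 without OP9M2 replicate 1, in fits that called 12.7% and 9.19% of all genes.

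The genes around Srebf1 showed little difference in common. SREBP proteins are bound by their escort Scap, which the Insig proteins hold in the endoplasmic reticulum until sterols fall. Of 23 listed genes of this pathway 21 were measured, of which 1 was higher, 2 were lower and 18 were not called (14.3% called, against 5.91% of all genes; median difference 0.12). Insig2, at 11.33 and 11.30 against 9.32 and 9.56, was higher in OP9M2 (1.88 ± 0.15, adjusted p = 0.00887, limma). Scap, at 10.40 and 10.38 against 11.32 and 11.56, was lower (-1.05 ± 0.15, adjusted p = 0.0368), but was not called with limma-trend (adjusted p = 0.0511) or by the mean of its probe sets (-0.57, adjusted p = 0.0726). The desaturase Fads2, at 8.95 and 8.86 against 10.72 and 10.83, was lower (-1.87 ± 0.14, adjusted p = 0.00688), and the other 11 fatty acid synthesis targets were not called. The brightest genes that were not called were Scd2 (-0.20), Acly (0.75) and Hmgcs1 (0.64). On OP9M2 replicate 1, 3 of the 21 genes (14.3%, against 4.47% of all genes) were at least 1 log2 unit above replicate 2 and 0 were as far below.

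Across the 4 arrays, the genes whose pattern was most like that of Pparg were Brinp3, the regulator of G-protein signalling Rgs2, Galnt13, Glrb and Repin1. Likeness was the Euclidean distance of values centred on each gene's own mean, over 12298 genes above background on at least 1 array, and was 0.18, 0.28, 0.29, 0.39 and 0.40 log2 units. Rgs2, for example, had values of 10.39 and 9.84 in OP9M2 and of 5.43 and 5.29 in BFC012. None of the other 9 factors was among these 5 genes, and with 4 arrays of 2 lines this likeness is a description only.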

How the data were processed

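Total RNA of irradiated OP9M2 and BFC012 cells, 2 arrays per line, was amplified with an Ambion kit and measured on Affymetrix mouse expression arrays, according to the methods of the study. The deposited table held an RMA intensity for every probe set on every array, made by the authors with affy, with versions and settings not given in the sources used here. Between 6.31% and 6.57% of the values of an array exceeded 65535, the largest value of the scanner, while their natural logarithms lay between 2.06 and 14.9. For this reason the natural logarithm was taken to be the RMA log2 value. The authors did not state the base, and log2 of the deposited values was an alternative that makes every difference larger in proportion.

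Of 45101 probe sets, 64 array controls were left out. In the array annotation 34945 of the others named 1 gene, 932 several and 9160 none, and 34741 were matched to the RefSeq gene table (GRCm38.p6) for current symbols and positions. Groups followed the sample titles. The lines were compared by limma 3.58.1 under R 4.3.3 (lmFit, then eBayes, without covariates) over 45037 probe sets, with the false discovery rate of 5% and the 2-fold change named in the methods. The fit was tested on simulated data. No set test was run. The number of arrays limits the precision.

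The members and gene lists were chosen by role, with earlier results of these data known. All members were named with every probe set. Of each list the called genes were named, up to 8 per direction, with the 3 brightest that were not called. Cd36, Adipoq, Cidec, Retn, Lep, Rxra, Egr2, Klf5 and the other markers were named after their values were seen. Some listed genes were not analysed here. Of the endothelial markers, 4 of 5 were not above background on any array, nor were 3 of the 4 measured hepatocyte markers.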

Additional observations from a re-analysis of the deposited data

How the results depend on the processing

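The alternatives were log2 of the deposited values, renewed quantile normalization, only probe sets above background, limma-trend with a robust prior, the replicate number as a block, each array left out in turn, and the mean of a gene's probe sets. None of the 10 members changed direction in any of them (99 values, of which 82 stayed on their side of the threshold). Most of these fits could not have reversed a direction, so this adds little. The arrays of the lines did not overlap in any member, so leaving out 1 array could not. Taking log2, the background filter, limma-trend and the block also keep the sign of a difference. With the replicate number as a block, which leaves 1 residual degree of freedom, 1 member was higher (Pparg) and 1 lower (Ebf2), 5 member probe sets, 3 targets and 0 SREBP pathway genes were called, and Cebpd (adjusted p = 0.0554), Ebf1 (0.0618) and Ebf3 (0.0552) were not. The deviations of same-numbered arrays had r = -0.10 across probe sets, so the numbers were not taken to pair the arrays. The crossed pairing, added after seeing the data, gave 2 members higher, 2 lower, 9 member probe sets and 2 regulators. Leaving out 1 array at a time gave 0 to 5 members higher, 0 to 2 lower, 0 to 15 member probe sets, 0 to 13 regulators, 0 to 18 targets and 0 to 4 SREBP pathway genes. Every 0 came from leaving out a BFC012 array, where the member differences lay between -4.77 and 5.10. Leaving out 1 array moved Cbr2 between -0.025 and 1.27 (called without OP9M2 replicate 2) and Scd2 between -0.41 and 0.013, so that both changed sign. The causes were not tested. Members at or near background (Klf15, the dim probe sets of Ebf1 and Ebf2) have the least certain values. The BFC012 values of Pparg, Cebpa and Zfp423 and the OP9M2 values of the dimmer Cebpd probe set were also close to background.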

Other observations

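The genes with the largest gaps between the OP9M2 arrays, chosen after their values were seen, included several known from fat cells. Adipoq had the largest (7.43 log2 units). The carbonic anhydrase Car3 lay at 11.35 on OP9M2 replicate 1 and at 6.16 on replicate 2, against 5.59 and 5.54 in BFC012. The amine oxidase Aoc3 lay at 10.32 and 5.36, against 5.87 and 7.48, the plasma protein haptoglobin, Hp, at 12.62 and 7.83, against 6.24 and 6.70, and the lipolysis inhibitor G0s2 at 12.42 and 8.56, against 4.57 and 5.21. Rgcc, Col15a1, Il6 and Egr2 were far higher on replicate 1 as well. Il6 lay at 8.63 and 4.67, against 8.31 and 8.49 in BFC012, and Egr2 at 9.51 and 5.39, against 8.58 and 8.26. For these last genes OP9M2 replicate 2 was the array that stood apart. In the opposite direction, the muscle and stretch response gene Ankrd1 lay at 4.46 and 9.31, against 12.62 and 11.83 in BFC012, and Pcolce2, an enhancer of collagen processing, at 5.98 and 10.37, against 9.44 and 8.43. These are values of single arrays, with no test.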
